A study of Mus musculus with 6 samples.

Results

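Lysosomes are acidic organelles in which hydrolases break down proteins, lipids and sugars delivered from outside the cell or, through autophagy, from inside it. A proton pump, the V-ATPase, keeps the lumen acidic, and membrane proteins hold the organelle together and export what is released. Autophagy wraps cytoplasmic material in a membrane coated with proteins of the LC3 and GABARAP families and fuses it with the lysosome. The transcription factors TFEB, TFE3 and MITF drive many of these genes through a promoter sequence known as the CLEAR element, whereas NRF2, encoded by Nfe2l2, acts through antioxidant response elements. The genes described here are 40 named lysosome and autophagy genes, of 43629 genes in the deposited tables. They comprise 9 cathepsins, 2 cystatins that inhibit cathepsins, 8 other hydrolases and activators, 9 genes of the membrane, transport and pump, 3 transcription factors and 9 autophagy genes.

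RNA was sequenced from primary dermal fibroblasts, at passage 1 after 6 days of culture, from the skin of newborn mice of mixed background (50% C57Bl/6 and 50% FVB/N). All 6 libraries came from mice carrying Col1a2Cre, a Cre recombinase driven in fibroblasts. The 3 ctrl libraries had Cre only (Col1a2Cre-wt), and the 3 caNrf2 libraries also had a constitutively active Nrf2 mutant (Col1a2Cre-caNrf2), each group from 3 mice. The comparison asks how these genes differed with the active NRF2. Totals ranged from 30168400 to 45164208 expected counts per library. Nfe2l2 rose 3.48-fold (log2 fold change 1.8), and the NRF2 targets Nqo1 (4.66) and Gclm (2.77) rose with it, in the direction the labels give. Fibroblast markers were abundant in both groups. Col1a1 had 14010 to 20290 CPM (counts scaled to a common library size) in ctrl and 11160 to 12670 CPM in caNrf2, where it was lower (log2 fold change -0.56). Summed CPM of 20 macrophage and leukocyte markers, none of them at 0 in any library, was 24.4, 68.7 and 68.3 in ctrl 1, 2 and 3 and 189, 210 and 174 in caNrf2 1, 2 and 3. Of these 20 markers, 18 were higher in caNrf2. Lyz2, the most abundant, had a log2 fold change of 1.88, and Cd53, with the smallest adjusted p, one of 2.01. In bulk RNA, a change in the number of cells of a type and a change in RNA per cell cannot be told apart.

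All 40 genes were detected well enough to be tested. At an adjusted p under 0.05 (edgeR's quasi-likelihood test, Benjamini-Hochberg adjustment over 15341 genes), 7 rose in caNrf2 and 5 fell, and 28 did not pass. That is 17.5% higher and 12.5% lower, beside 12.5% and 9.03% of all genes tested. In either direction 30% of the genes passed, against a background of 21.5%. The 7 that rose were Gabarapl1, Ctsd, Ctsb, Psap, Tfe3, Atp6v1h and Gusb. The 5 that fell were Scarb2, Ctsf, Mcoln1, Neu1 and Ctsk. The median log2 fold change of the 40 was 0.05 (range -0.56 to 1.03), and that of all genes tested was -0.003. Most differences were small: 26 of the 40 lay within 0.25 of 0 on the log2 scale, and Gabarapl1 alone reached 2-fold. In 19 of the 40 the CPM values of the groups did not overlap, 10 with caNrf2 above and 9 with caNrf2 below. The background share of genes with groups that do not overlap was 42.1%, with 22% above and 20.1% below.

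**Figure D1:**
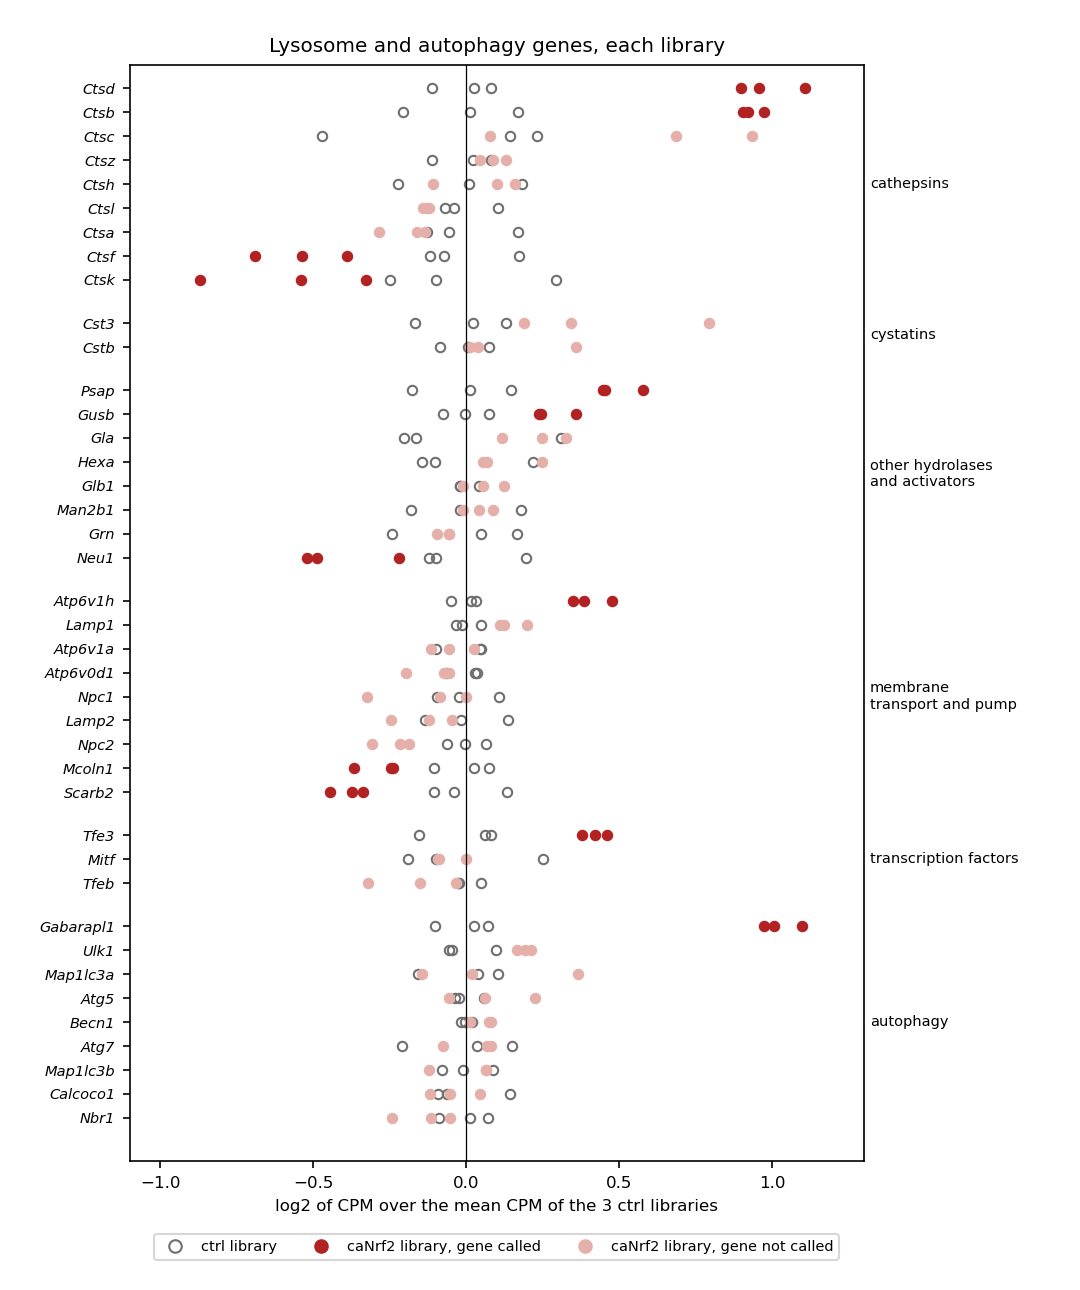
Each point is 1 library of the 40 genes, as the log2 ratio of its CPM to the mean CPM of the 3 ctrl libraries, ordered by role; open points are ctrl, and filled points are caNrf2, darker where the gene passed the test. Ctsd, Ctsb and Gabarapl1 stand near 1 in all 3 caNrf2 libraries, while most other genes lie close to 0.

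Cathepsins are the proteases of the lysosome, and in caNrf2 they moved in both directions: Ctsb and Ctsd rose, Ctsf and Ctsk fell, and 5 of the 9 did not pass. Thus 44.4% of the 9 passed, beside 21.5% of all genes tested. Ctsd encodes the aspartic protease cathepsin D and lies on the minus strand at chr7:142371148-142388038 (GRCm38). Its promoter holds both sequence types named above, and the stretches are printed because Ctsd passed the test and its window held a searched motif. Ctsd also had the largest rise among these 9 cathepsins. In the first stretch, chr7:142387908-142387937, minus strand, capitals mark the CLEAR core, 99 to 92 bases before the RefSeq start. In the second, chr7:142387863-142387892, minus strand, capitals mark 2 antioxidant response element cores, 1 on each DNA strand, at 62 to 54 and 47 to 39 bases before the start. Both stretches also lie inside the annotated first exon of ENSMUST00000151120.
Ctsd, CLEAR core: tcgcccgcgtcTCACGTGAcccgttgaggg
Ctsd, antioxidant response element cores: agcTGACTCCGCgggactGCGGCGTCAtcc

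Ctsd CPM was 556, 612 and 636 in ctrl 1, 2 and 3 and 1295, 1166 and 1121 in caNrf2 1, 2 and 3. The caNrf2 libraries all lay far above the highest ctrl library. The fold change was 1.99 (log2 0.99, SE 0.10, adjusted p = 0.000157). Ctsb, the cysteine protease cathepsin B (chr14:63122462-63145919), had 422, 491 and 548 CPM in ctrl and 957, 911 and 922 CPM in caNrf2. Its groups were as clearly apart, with a fold change of 1.91 (log2 0.93, SE 0.11, adjusted p = 0.000437). Fdft1 lies on the opposite strand and shares 767 exonic bases with Ctsb, 16.2% of the exonic bases of Ctsb. Fdft1 itself was at 126, 131 and 127 CPM in ctrl and 127, 99.9 and 111 CPM in caNrf2, so it did not move upward with Ctsb.

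Cathepsin K, a collagen-degrading protease of bone-resorbing cells and fibroblasts, went the other way. Ctsk CPM was 196, 177 and 258 in ctrl and 168, 115 and 145 in caNrf2. The groups did not overlap, but the lowest ctrl and highest caNrf2 libraries lay close together (log2 fold change -0.56, SE 0.17, adjusted p = 0.0439). Ctsf, another cysteine cathepsin, was low throughout, at 12.7, 12.3 and 15 CPM in ctrl and 10.2, 8.25 and 9.19 CPM in caNrf2. All 3 caNrf2 values were below all 3 ctrl values (log2 fold change -0.53, SE 0.12, adjusted p = 0.0148). The call on Ctsk was lost without ctrl 1, ctrl 3, caNrf2 2 or caNrf2 3, with adjusted p from 0.0784 to 0.132, and that on Ctsf without ctrl 3 (0.0555) or caNrf2 2 (0.0538).

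The remaining cathepsins did not pass. Ctsl, which encodes the broadly expressed cathepsin L, had 300, 307 and 339 CPM in ctrl and 289, 286 and 290 CPM in caNrf2 (log2 fold change -0.13, adjusted p = 0.291). Ctsa, the protective protein of lysosomal sialidase and beta-galactosidase, had 259, 272 and 318 CPM in ctrl and 253, 232 and 258 CPM in caNrf2 (log2 fold change -0.19, adjusted p = 0.205). In both genes the caNrf2 values lay below the ctrl values by less than the test required. Pltp, on the opposite strand, shares 10.5% of the exonic bases of Ctsa and had 38.6, 32.6 and 44.9 CPM in ctrl and 15, 11.6 and 15.2 CPM in caNrf2, the same direction as Ctsa. Its part in the Ctsa values was not tested. Ctsh and Ctsz, exopeptidases, had log2 fold changes of 0.06 and 0.09. Ctsc, which activates serine proteases of leukocytes, was the least abundant cathepsin, at 3.72, 5.69 and 6.05 CPM in ctrl and 5.44, 9.86 and 8.29 CPM in caNrf2. Its groups overlapped (log2 fold change 0.61, adjusted p = 0.112), and without caNrf2 1 it passed (adjusted p = 0.0368).

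The order of the cathepsins also differed between the groups by TPM, the deposited transcript abundance, which corrects for length. In ctrl, mean TPM was 599 ± 67.0 (SD, n = 3) for Ctsd, 312 ± 21.6 for Ctsl, 288 ± 36.3 for Ctsa, 282 ± 57.0 for Ctsk and 193 ± 25.8 for Ctsb. Ctsl, Ctsa and Ctsk did not differ beyond their spread. In caNrf2, Ctsd stood at 1157 ± 26.6 and Ctsb at 354 ± 9.31 TPM, the latter now above Ctsl (274 ± 13.8), Ctsa (239 ± 13.3) and Ctsk (183 ± 26.0). Summed over the 9 cathepsins, TPM was 1800, 2002 and 2227 in ctrl and 2534, 2529 and 2569 in caNrf2, a ratio of means of 1.27. Summed CPM was 1940, 2097 and 2345 in ctrl and 3210, 2939 and 2978 in caNrf2, a ratio of 1.43. Without Ctsb and Ctsd, summed TPM of the other 7 was 1112, 1168 and 1373 in ctrl and 1022, 994 and 1083 in caNrf2. By TPM, the higher total lay in Ctsb and Ctsd, and the other cathepsins together were no higher in any caNrf2 library than in the lowest ctrl library.

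Cystatins bind and block cysteine cathepsins, and neither member passed the test. The secreted cystatin C gene, Cst3, had 252, 272 and 222 CPM in ctrl and 431, 315 and 283 CPM in caNrf2. The groups did not overlap, but caNrf2 1 stood well above the other libraries, and the log2 fold change of 0.46 (SE 0.16) had an adjusted p of 0.0654. Cst3 passed with DESeq2 (adjusted p = 0.0122), without the filter on low counts (0.0235) and without caNrf2 3 (0.0378). Cstb, the cytosolic cystatin B, had 66.2, 62.3 and 69.5 CPM in ctrl and 84.7, 66.6 and 67.8 CPM in caNrf2, and its groups overlapped (adjusted p = 0.348). Of 7 further genes of cystatins and other protease inhibitors, 3 were tested and all 3 rose. Of all genes tested, 12.5% rose. The list was chosen with earlier results of these data known, so its share cannot be read against that background. Cst6, a secreted cystatin, was near the lower limit at 1.36 to 1.63 CPM in ctrl and 2.28 to 3.59 CPM in caNrf2 (log2 fold change 0.92, adjusted p = 0.0194), a call lost without ctrl 1, ctrl 3 or caNrf2 3. Serpinb6a, an intracellular protease inhibitor, had 221 to 244 CPM in ctrl and 392 to 469 CPM in caNrf2 (0.89, adjusted p = 0.000295). Serpinb9, the inhibitor of granzyme B, had 11.0 to 13.9 and 51.0 to 54.9 CPM (2.14, adjusted p = 2.25e-06).

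**Figure D2:**
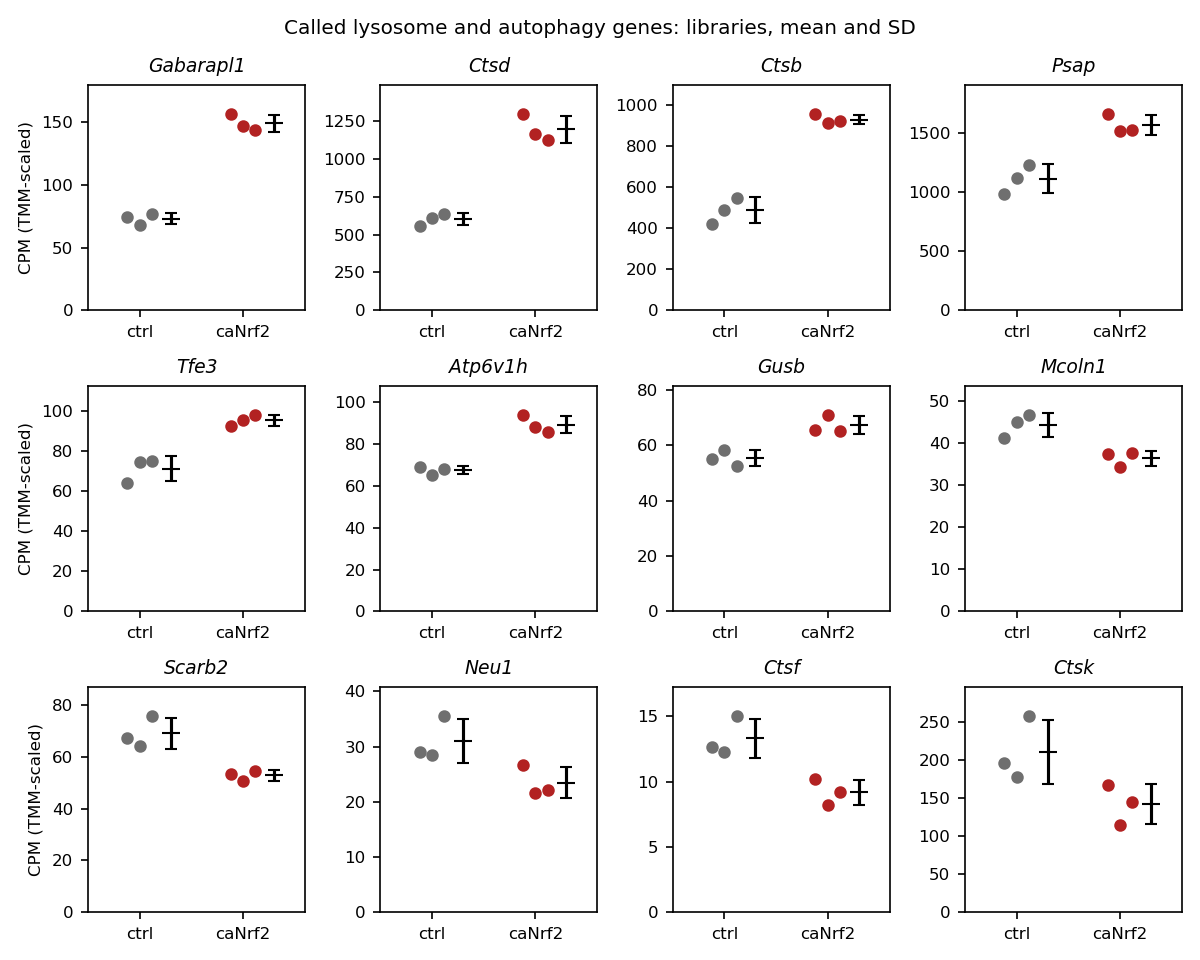
CPM in each library (points, ctrl grey and caNrf2 red), with mean and SD (bars, n = 3), for the 12 genes that passed the test; each axis starts at 0. Gabarapl1, Ctsd and Ctsb show the wide gaps, with caNrf2 means of 149, 1194 and 930 CPM, while Mcoln1, Neu1 and Ctsk show narrow ones.

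Among the other hydrolases and their activators, Psap and Gusb rose, Neu1 fell, and 5 of the 8 did not pass. The share passing was 37.5%, beside 21.5% of all genes tested. Psap encodes prosaposin, the precursor of the saposins that present sphingolipids to lysosomal enzymes (chr10:60277627-60302597, plus strand). It had the highest mean of the 40 genes in ctrl, at 823 ± 95.3 TPM (SD, n = 3), but did not differ beyond its spread from Lamp1 (744 ± 24.1), which was above it in ctrl 1. CPM was 985, 1123 and 1231 in ctrl and 1661, 1516 and 1525 in caNrf2. Every caNrf2 library was above every ctrl library, with a fold change of 1.41 (log2 0.49, SE 0.10, adjusted p = 0.00941). Ctsd overtook Psap in caNrf2, where Psap stood at 1112 ± 1.29 TPM. Its promoter is shown as a contrast to that of Ctsd, because the window held an antioxidant response element core, in capitals at 20 to 12 bases before the RefSeq start, and no CLEAR core. The stretch is chr10:60277378-60277626, plus strand.
Psap: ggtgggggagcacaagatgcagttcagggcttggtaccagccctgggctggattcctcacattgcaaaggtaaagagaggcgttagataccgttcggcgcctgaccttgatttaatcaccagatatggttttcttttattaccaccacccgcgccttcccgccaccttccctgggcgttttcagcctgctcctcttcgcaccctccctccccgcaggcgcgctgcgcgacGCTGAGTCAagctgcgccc

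Gusb, the beta-glucuronidase that removes glucuronic acid from glycosaminoglycans, had 55.2, 58.3 and 52.5 CPM in ctrl and 65.6, 71.0 and 65.3 CPM in caNrf2. The groups were apart and the difference was modest (log2 fold change 0.28, SE 0.07, adjusted p = 0.0260). The sialidase gene Neu1 had 29.0, 28.5 and 35.5 CPM in ctrl and 26.6, 21.6 and 22.1 CPM in caNrf2. All caNrf2 values were below the ctrl values (log2 fold change -0.40, SE 0.12, adjusted p = 0.0401). Neu1 lost its call when any single library but caNrf2 1 was left out (adjusted p from 0.0523 to 0.136). Gusb lost its call without ctrl 1, ctrl 3, caNrf2 2 or caNrf2 3 (0.0598 to 0.117). The alpha- and beta-galactosidases Gla and Glb1, the beta-hexosaminidase subunit Hexa and the alpha-mannosidase Man2b1 had overlapping groups, with log2 fold changes of 0.24, 0.06, 0.13 and 0.04. Gla passed without ctrl 3 (adjusted p = 0.0310). Grn, the precursor of the lysosomal granulins, had 296, 363 and 393 CPM in ctrl and 337, 328 and 337 CPM in caNrf2, where the caNrf2 values fell inside the ctrl range (log2 fold change -0.07, adjusted p = 0.688).

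Of the 9 genes of the lysosomal membrane, of transport and of the proton pump, 1 rose, 2 fell and 6 did not pass. That is 11.1% higher and 22.2% lower, beside 12.5% and 9.03% of all genes tested. The log2 fold change was below 0 in 7 of the 9, beside 7737 of all 15341 genes, with a median of -0.13. Scarb2 encodes LIMP-2, the receptor that carries glucocerebrosidase to the lysosome (chr5:92443873-92505608, minus strand). CPM was 67.0, 64.1 and 75.6 in ctrl and 53.2, 50.6 and 54.6 in caNrf2. The caNrf2 values were tightly grouped below the ctrl values (log2 fold change -0.38, SE 0.08, adjusted p = 0.0107). Mcoln1, the calcium channel TRPML1 of the lysosomal membrane (chr8:3500457-3515232, plus strand), had 41.1, 45 and 46.6 CPM in ctrl and 37.3, 34.4 and 37.5 CPM in caNrf2. Its groups were apart by a small step (log2 fold change -0.28, SE 0.08, adjusted p = 0.0337), and the call was lost without ctrl 2, ctrl 3, caNrf2 2 or caNrf2 3 (adjusted p from 0.0723 to 0.128).

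The promoters of these falling genes are printed because they held the same cores as those of Ctsd and Psap, which rose. In Scarb2, chr5:92505658-92505907, minus strand, capitals mark an antioxidant response element core 99 to 91 bases before the RefSeq start. In Mcoln1, chr8:3500462-3500491, plus strand, capitals mark the CLEAR core 46 to 39 bases before the start, inside an annotated first exon of ENSMUST00000004683.
Scarb2: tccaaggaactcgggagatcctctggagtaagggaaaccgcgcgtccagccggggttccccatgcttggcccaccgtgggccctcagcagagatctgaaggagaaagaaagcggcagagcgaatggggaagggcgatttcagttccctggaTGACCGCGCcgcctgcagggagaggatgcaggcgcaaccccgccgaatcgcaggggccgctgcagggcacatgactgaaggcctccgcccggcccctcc
Mcoln1: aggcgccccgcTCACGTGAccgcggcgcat

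Of the 40 genes, 33 had a promoter entry in the RefSeq-derived table (GRCm38.p6). Motifs were searched on both strands in the 250 bases before each start, and a gene with several starts counted once if any window held the motif. The CLEAR core TCACGTGA was in 5 of the 33 (15.2%), namely Ctsa, Ctsd, Gla, Mcoln1 and Atp6v1a, and in 245 of 27025 genes (0.907%). Of these 5, Ctsd rose, Mcoln1 fell and the others did not pass. The antioxidant response element core, TGACNNNGC or TGAGNNNGC, was in 11 of the 33 (33.3%) and in 25.7% of all genes. Among the 10 genes that passed the test and had an entry, 3 held it (30%): Ctsd and Psap, which rose, and Scarb2, which fell. The windows of Gabarapl1, Tfe3 and Gusb held neither sequence. A match gives the presence of the letters only.

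Atp6v1h, the subunit H of the V1 sector of the proton pump, was the member of this group that rose (chr1:5070018-5162529). Values were 68.9, 65.2 and 68.3 CPM in ctrl and 93.9, 88.0 and 85.9 CPM in caNrf2. The groups were well apart (log2 fold change 0.40, SE 0.07, adjusted p = 0.00404). The other pump subunits did not move with it. Atp6v1a, the catalytic subunit A, had 207, 187 and 207 CPM in ctrl and 185, 193 and 204 CPM in caNrf2, and Atp6v0d1, of the membrane sector, had 145, 136 and 146 and 137, 124 and 136 CPM. Their groups overlapped (log2 fold changes -0.05 and -0.11).

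Lamp1 and Lamp2 encode the heavily glycosylated coat proteins of the lysosomal membrane. Lamp1 had 860, 848 and 898 CPM in ctrl and 998, 937 and 946 CPM in caNrf2, which did not overlap but did not pass (log2 fold change 0.14, adjusted p = 0.227). Lamp2 had 584, 538 and 650 CPM in ctrl and 542, 498 and 572 CPM in caNrf2, which overlapped (-0.14, adjusted p = 0.365). The cholesterol exporters Npc1 and Npc2 had log2 fold changes of -0.13 and -0.24. Npc2 was at 327, 313 and 342 CPM in ctrl and 287, 265 and 282 CPM in caNrf2. The groups of Npc2 were apart, yet the adjusted p was 0.0700. It passed with upper-quartile scaling (0.0455) and with DESeq2 (0.0212).

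Lamp2 makes transcripts with different last exons, of which LAMP2A is the receptor of chaperone-mediated autophagy. Transcripts were named here by the translated ends of their annotated sequences, which were not set against a protein table, and the isoform names below hold only as far as that assignment does. ENSMUST00000016678, assigned to LAMP2A, made up 34.3%, 36.2% and 34.3% of Lamp2 TPM in ctrl and 40.3%, 40.4% and 39.9% in caNrf2. ENSMUST00000061755, assigned to LAMP2B, made up 64.3%, 62.5% and 64.5% in ctrl and 58.9%, 58.5% and 59.1% in caNrf2. The shares of the groups did not overlap for either transcript, and they were picked out after their values were seen. In absolute terms LAMP2A stood at 129, 127 and 144 TPM in ctrl and 132, 134 and 150 TPM in caNrf2. LAMP2B stood at 241, 220 and 271 TPM in ctrl and 193, 194 and 222 TPM in caNrf2. The LAMP2B values thus carried most of the difference in share, although 222 TPM in caNrf2 3 exceeded 220 TPM in ctrl 2. The test of transcript usage, edgeR's diffSpliceDGE with Simes adjustment per gene, did not call Lamp2 (adjusted p = 1.0, and 0.720 by its gene-level F test).

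**Figure D3:**
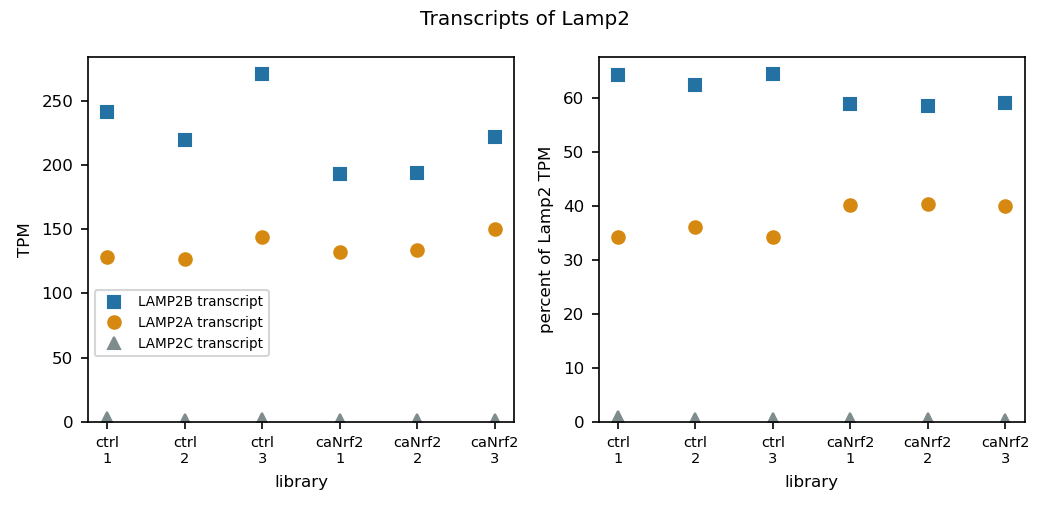
TPM (left) and percent of Lamp2 TPM (right) of the transcripts assigned to LAMP2A, LAMP2B and LAMP2C in each library. LAMP2A holds 39.9% to 40.4% in the 3 caNrf2 libraries and 34.3% to 36.2% in the 3 ctrl libraries, a difference that the usage test did not call.

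Transcript usage could be tested in 23 of the 40 genes, and 1 passed, Nbr1, beside a background of 0.801% of 7992 genes. Nbr1 encodes a receptor that ties ubiquitinated cargo to autophagosomes. The transcript behind the call, ENSMUST00000071537, was at 0, 0.62 and 0 TPM in ctrl and 1.61, 5.83 and 4.64 TPM in caNrf2 (adjusted p = 0.0498 for the gene). A transcript of nearly the same extent, ENSMUST00000107218, ran the opposite way, at 0, 6.14 and 4.55 TPM in ctrl and 0, 0 and 0.04 TPM in caNrf2. Summed, the pair stood at 0, 6.76 and 4.55 TPM in ctrl and 1.61, 5.83 and 4.68 TPM in caNrf2, which overlap. The call was lost with the gene-level F test (adjusted p = 0.293), with the stricter filter (0.0976) and without ctrl 3 (0.231), caNrf2 1 (0.231), caNrf2 2 (0.285) or caNrf2 3 (0.121). Nbr1 as a whole had 150, 140 and 157 CPM in ctrl and 126, 138 and 144 CPM in caNrf2 (log2 fold change -0.13, adjusted p = 0.287).

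Of the transcription factors, Tfe3 rose and its relatives Tfeb and Mitf did not pass. Tfe3 (chrX:7762560-7775202) had 63.8, 74.2 and 75.1 CPM in ctrl and 92.3, 95.1 and 97.8 CPM in caNrf2. All caNrf2 libraries exceeded the highest ctrl library (log2 fold change 0.42, SE 0.08, adjusted p = 0.00725). By TPM, Tfe3 (48.4 ± 4.04 in ctrl, SD, n = 3) was far more abundant than Mitf (6.69 ± 1.33) and Tfeb (3.22 ± 0.43), the last being the lowest of the 40 genes in both groups. Tfeb had 3.27, 3.26 and 3.44 CPM in ctrl and 3.25, 2.66 and 3.00 CPM in caNrf2 (log2 fold change -0.16, adjusted p = 0.488). Mitf had 15.4, 14.4 and 19.6 CPM in ctrl and 15.4, 15.5 and 16.5 CPM in caNrf2, well inside the ctrl range. Mitf is also the master regulator of melanocytes. None of 6 melanocyte markers passed, with Dct at a log2 fold change of 0.44 (adjusted p = 0.156).

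Among the autophagy genes, Gabarapl1 rose and the other 8 did not pass. That is 11.1% passing, beside 21.5% of all genes tested. Gabarapl1 encodes a GABARAP-family protein that is joined to lipid on the autophagosome membrane (chr6:129533200-129542331). CPM was 74.3, 67.9 and 76.7 in ctrl and 156, 147 and 143 in caNrf2. The lowest caNrf2 library was far above the highest ctrl library, with a fold change of 2.04 (log2 1.03, SE 0.08, adjusted p = 3.94e-05). Its paralogs of the LC3 family did not share the change. Map1lc3b had 167, 176 and 188 CPM in ctrl and 185, 163 and 185 CPM in caNrf2 (log2 fold change 0.01, with the sign turning under upper-quartile scaling at -0.03 and under total counts at -0.01). Map1lc3a had 46.4, 55.5 and 53.1 CPM in ctrl and 66.5, 46.7 and 52.3 CPM in caNrf2 (0.09, adjusted p = 0.643). By TPM, Gabarapl1 went from below both LC3 genes in ctrl (81.1 ± 5.02, against 118 ± 15.3 for Map1lc3a and 235 ± 12.5 for Map1lc3b) to a level above Map1lc3a in caNrf2 (159 ± 2.79 against 124 ± 17.7).

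The kinase gene Ulk1, whose product starts autophagosome formation, had 45.3, 45.7 and 50.4 CPM in ctrl and 53.9, 52.9 and 54.6 CPM in caNrf2. Its groups did not overlap, but the difference did not pass (log2 fold change 0.19, adjusted p = 0.0903). Becn1, of the lipid kinase complex, and Atg5 and Atg7, of the conjugation machinery, had log2 fold changes of 0.06, 0.08 and 0.03 and overlapping groups, and upper-quartile scaling turned the sign of Atg7 (-0.01). Becn1 shares 43.9% of its exonic bases with Cntd1 on the opposite strand, which stayed below 1 CPM. Calcoco1, a receptor for the autophagy of endoplasmic reticulum, had a log2 fold change of -0.04. Outside the 40 genes, Sqstm1, which encodes the cargo receptor p62 and is a textbook NRF2 target, had 224, 271 and 282 CPM in ctrl and 520, 452 and 464 CPM in caNrf2. Its groups were clearly apart (log2 fold change 0.89, adjusted p = 0.000689).

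Leukocytes and macrophages are rich in lysosomes, so their markers are set beside the genes that rose. The marker sum differed within ctrl, 2.81-fold between ctrl 2 and ctrl 1 and 2.79-fold between ctrl 3 and ctrl 1. Over the same library pairs Ctsd differed 1.10- and 1.14-fold, Ctsb 1.16- and 1.3-fold and Psap 1.14- and 1.25-fold. Like the marker sum, each of these genes was lowest in ctrl 1 among the ctrl libraries. Of the other rising genes, Tfe3 was also lowest in ctrl 1, Gabarapl1 and Atp6v1h in ctrl 2, and Gusb in ctrl 3. Among the ctrl libraries, ctrl 1 held the lowest CPM in 50% of the 40 genes and in 38.3% of all genes tested. Ctss, the cathepsin typical of macrophages and no member of the 40, differed 3.48- and 3.93-fold, close to Lyz2 at 3.4- and 3.27-fold. Ctss had 1.44, 5.0 and 5.65 CPM in ctrl and 22.6, 21.1 and 19.3 CPM in caNrf2. The caNrf2 mean exceeded the ctrl mean by 593 CPM for Ctsd, 443 CPM for Ctsb and 454 CPM for Psap, and by 71.0 CPM for Lyz2. The part of leukocyte RNA in these rises was not tested.

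**Figure D4:**
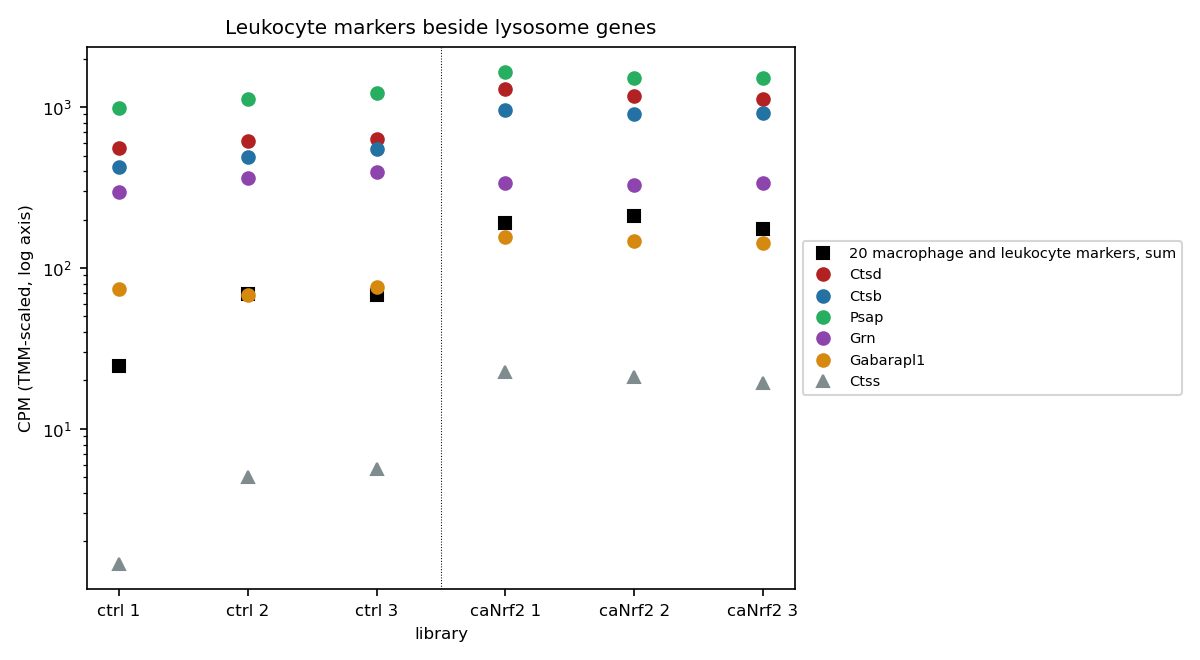
CPM on a log axis in each library for the sum of 20 macrophage and leukocyte markers (squares), for 5 of the 40 genes (circles) and for Ctss (triangles). Between ctrl 1 and the other ctrl libraries the marker sum and Ctss differ 2.79- to 3.93-fold, and Ctsd, Ctsb and Psap 1.10- to 1.30-fold. Among the ctrl libraries, the marker sum, Ctss, Ctsd, Ctsb, Psap and Grn are lowest in ctrl 1, and Gabarapl1 is lowest in ctrl 2.

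Of the other markers, 1 of 6 keratinocyte (Krt14, log2 fold change 0.73) and 1 of 5 endothelial markers (Cdh5, 1.04) were higher. So were 4 of 6 skeletal muscle markers, among them Myog (log2 fold change 0.88, adjusted p = 0.00101) and the most abundant, Myh3 (0.67, adjusted p = 0.005). The call on Krt14 was lost without ctrl 2, ctrl 3, caNrf2 2 or caNrf2 3 (adjusted p from 0.0503 to 0.0751) and that on Cdh5 without caNrf2 2 (0.0503). Krt5, which did not pass (log2 fold change 0.64), passed in 3 of 16 alternatives. Of 8 fibroblast markers, 2 were higher and 4 lower. Among the lower ones, Col1a2 (log2 fold change -0.70, adjusted p = 0.00993) passed under all 16 alternatives. The call on Col1a1 (-0.56, adjusted p = 0.0192) was lost without ctrl 2, ctrl 3 or any caNrf2 library (0.0513 to 0.07885). The 2 higher ones were Pdgfra (log2 fold change 0.414, adjusted p = 0.01155) and Thy1 (0.402, adjusted p = 0.01445), named after their values were seen. Summed CPM of the 8 was 27380, 35130 and 39270 in ctrl and 23940, 21410 and 24750 in caNrf2. Most of this sum was collagen RNA. Col1a1 and Col1a2 had means of 17600 and 13540 CPM in ctrl and 11970 and 8355 CPM in caNrf2. The part of all these markers in the differences above was likewise not tested.

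The 40 genes also varied together inside each group. Among the ctrl libraries, ctrl 3 held the highest CPM in 34 of 40 genes (85%), against 31.1% of all genes tested. Among the caNrf2 libraries, caNrf2 2 held the lowest CPM in 26 of 40 (65%), against 32.4% of all genes. Their median coefficient of variation was nonetheless small, 7.94% in ctrl and 5.41% in caNrf2, beside 9.26% and 9.50% for all genes. Without ctrl 3 or without caNrf2 2, only Scarb2 of the 5 falling genes still passed, while 6 of the 7 rising genes did. Without caNrf2 3, 2 of the falling genes passed. Over all genes, lower calls went from 1385 to 823 without ctrl 3 and to 864 without caNrf2 2, and higher calls from 1917 to 1404 and 1342. Ctsb, Ctsd, Psap, Atp6v1h, Tfe3, Gabarapl1 and Scarb2 passed under all 16 alternative settings tried for the gene test.

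A wider list of 149 further genes of the same pathways, of which 143 could be tested, also moved in both directions, with 17 higher, 18 lower and a median log2 fold change of -0.01. Upper-quartile scaling gave 13 higher and 25 lower. In all 24.5% passed, near the background of 21.5%. Among 34 further hydrolases, 5 rose and 6 fell, so 32.4% passed. Ctss rose (log2 fold change 2.38, adjusted p = 0.00220), as did the glycogen-degrading Gaa (0.54) and the thioesterase Ppt2 (0.45). The call on Gaa was lost without caNrf2 3 (adjusted p = 0.0540). The sulfatases Arsa and Arsb and the acid ceramidase Asah1 fell (-0.49, -0.48 and -0.46). Asah1 was the most abundant of these falling genes, going from a ctrl mean of 303 ± 9.35 CPM (SD, n = 3) to a caNrf2 mean of 220 ± 12.6 CPM (SD, n = 3).

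Of 22 further membrane and transport genes, 3 rose and 4 fell, so 31.8% passed, beside 21.5% of all genes tested. The cystine exporter Ctns (-0.59), the nucleoside transporter Slc29a3 (-0.68) and the two-pore channel Tpcn1 (-0.29) fell. Cln3 (0.60), Mcoln2 (0.96) and Mcoln3 (0.75) rose. These were low genes: Cln3 had 4.03 to 4.91 CPM in ctrl and 6.10 to 7.04 CPM in caNrf2. Mcoln2 had 1.75 to 4.07 and 4.46 to 5.37 CPM, and Mcoln3 had 0.82 to 1.22 and 1.49 to 1.71 CPM. The call on Mcoln3 was lost in 11 of 16 alternatives and that on Mcoln2 in 6. Cln3 lost its call without ctrl 3 (adjusted p = 0.0518) or caNrf2 2 (0.0559), and Tpcn1 without ctrl 2 (0.0685), ctrl 3 (0.05002) or caNrf2 3 (0.0684). Mcoln2 and Mcoln3 encode the relatives of the channel made by Mcoln1, which fell.

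Of 17 further V-ATPase genes, 2 rose and 1 fell, so 17.6% passed, beside 21.5% of all genes tested. Atp6v0a1, a membrane-sector subunit, rose modestly (log2 fold change 0.32). Atp6v0d2, the variant of Atp6v0d1 found in osteoclasts and macrophages, rose from 0.17, 0.58 and 0.73 CPM in ctrl to 2.63, 2.57 and 2.33 CPM in caNrf2 (2.35, adjusted p = 0.00292). It was again lowest in ctrl 1, the library with the low leukocyte marker sum, whose part was not tested. Atp6ap2, an accessory subunit, fell (-0.30). The calls on Atp6v0a1 and Atp6ap2 were both lost without ctrl 3, caNrf2 2 or caNrf2 3, with adjusted p from 0.0507 to 0.0739. Enzymes reach the lysosome through mannose 6-phosphate receptors, and the genes of both receptors passed in opposite directions. M6pr had 162, 178 and 157 CPM in ctrl and 248, 255 and 236 CPM in caNrf2 (0.57, adjusted p = 0.00160). Igf2r had 386, 429 and 499 CPM in ctrl and 259, 322 and 365 CPM in caNrf2 (-0.47, adjusted p = 0.0441), a call lost when ctrl 2, ctrl 3, caNrf2 1 or caNrf2 2 was left out.

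Of 41 further autophagy genes, 3 rose and 3 fell, so 14.6% passed, below the 21.5% of all genes tested. Besides Sqstm1, the phosphoinositide-binding Wdr45 rose (0.69, adjusted p = 0.000250). Gabarapl2, a paralog of Gabarapl1, rose from 30.1 to 35.4 CPM in ctrl to 37.9 to 43.0 CPM in caNrf2 (0.34, adjusted p = 0.0270), a call lost in 4 of 16 alternatives. Gabarap itself, the founding member of that family, overlapped between the groups, at 345.5 to 395.6 CPM in ctrl and 304 to 393.5 CPM in caNrf2 (adjusted p = 0.498), and was named after its values were seen. Uvrag, Stx17 and Epg5, which act in the maturation of autophagosomes or their fusion with lysosomes, fell (-0.36, -0.36 and -0.51). The call on Epg5 was lost without ctrl 2 (adjusted p = 0.0505) or ctrl 3 (0.0715). Of 17 genes of nutrient sensing at the lysosome, none rose and 3 fell, so 17.6% passed, beside 21.5% of all genes tested. The 3 were the folliculin partners Fnip1 (-0.53) and Fnip2 (-0.30) and the low Rag GTPase gene Rragb (-1.5, at 0.67 to 1.24 CPM in ctrl and 0.24 to 0.41 CPM in caNrf2). The call on Fnip2 (adjusted p = 0.0494) was lost in 8 of 16 alternatives, among them limma-voom and RLE scaling, and that on Rragb without ctrl 1, caNrf2 1 or caNrf2 3. The call on Fnip1 was kept in all 16.

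**Figure D5:**
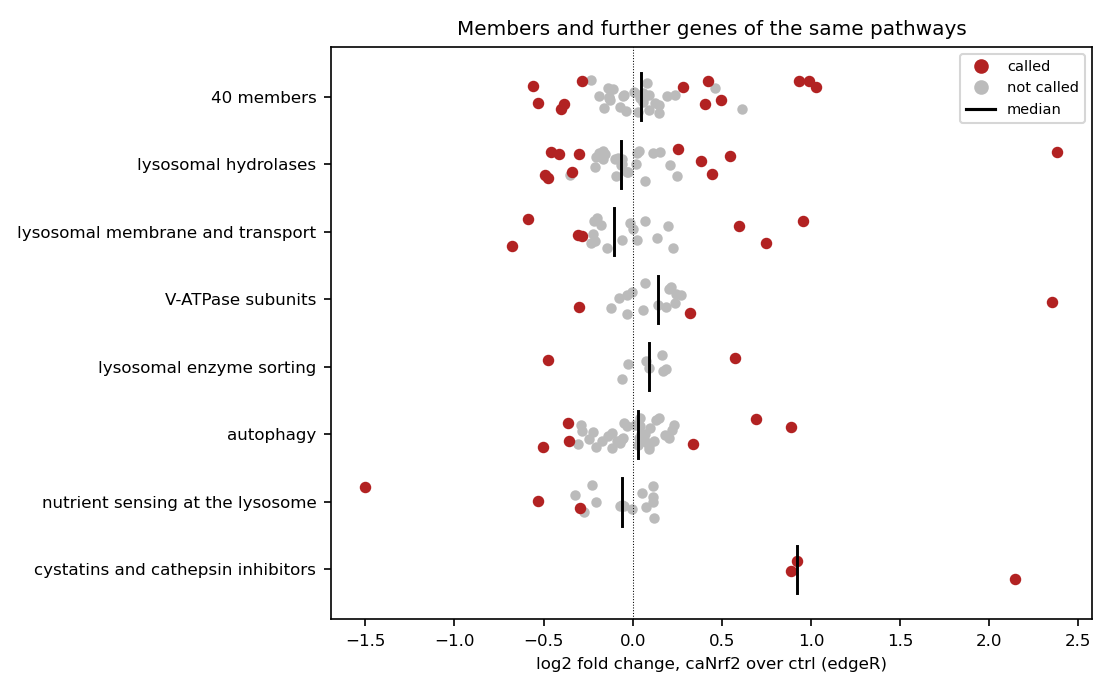
Log2 fold change of caNrf2 over ctrl for each tested gene of the 40 and of 7 lists of further genes in the same pathways (red, passed; grey, did not pass), with the median of each list as a bar. The medians of all lists but the inhibitors lie between -0.10 and 0.14, and called genes stand on both sides of 0 in 6 of the 8 rows.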

How the data were processed

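RNA-seq was done on 6 libraries, 3 ctrl and 3 caNrf2, grouped by their titles. The authors deposited, per transcript, expected counts and TPM, made with RSEM 1.2.21 and CASAVA 1.8 on GRCm38, per the submitters' processing notes. The aligner, annotation release and strandedness were not given in the sources used here, so overlapping and antisense genes may share reads. Expected counts were summed per gene and rounded. Deposited TPM values, which are not TMM-scaled, were summed per gene. They were used to compare levels between genes, and between the groups for the cathepsin sums and the transcripts of Lamp2 and Nbr1.

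Genes passing filterByExpr (minimum count 10, minimum total 15) were tested with edgeR 4.0.16 (R 4.3.3; TMM scaling, quasi-likelihood F test, two-sided, Benjamini-Hochberg adjustment over all 15341 genes, threshold 0.05). CPM values are TMM-scaled. Transcript usage was tested with diffSpliceDGE. Both tests were also tried on data simulated from the means and dispersions of these libraries. Alternatives were other scalings (RLE, upper quartile, total counts), no filter, a minimum count of 50, DESeq2 1.42.0, limma-voom (limma 3.58.1), posterior mean or unrounded counts, a replicate block and each library left out. With 3 libraries per group, from 3 mice per the series text, p-values measure the spread between these libraries.

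The 40 genes, the further lists and the marker lists were chosen with earlier results of these data known. Named are all 40 genes, up to 3 rising and 3 falling further genes per list with the smallest adjusted p, Sqstm1, the most abundant and most significant marker per list, and 3 NRF2 check genes. Gabarap, Pdgfra and Thy1 were added after their values were seen. Lamp2 transcripts were assigned to LAMP2A, LAMP2B and LAMP2C by the translated ends of the annotated transcripts. Gene positions are from GENCODE (GRCm38). Promoter windows are from RefSeq (GRCm38.p6), printed for passing genes whose window held a searched motif. Inside annotated exons 30 bases are shown.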

Additional observations from a re-analysis of the deposited data

How the results depend on the processing

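The counts of the 40 genes that rose kept within 1.5 times under all 16 alternatives. Leaving out 1 library at a time gave 6 to 8 genes higher and 1 to 5 genes lower, the fewest lower (1) without ctrl 3 or caNrf2 2, then 2 without caNrf2 3 and 3 without ctrl 1 or ctrl 2. For the further genes these fits gave 10 to 12 higher (10 without caNrf2 2 or caNrf2 3) and 9 to 15 lower (9 without ctrl 3, 11 without caNrf2 2 or caNrf2 3), and for all genes 1342 to 1755 higher and 823 to 1143 lower (823 without ctrl 3, 864 without caNrf2 2). The number of the 40 genes with shifted transcript usage, 1 in the reported fit, was 0 with the gene-level F test, with the stricter filter and with the replicate block, and 0 to 1 with a library left out. It was 0 without ctrl 3, caNrf2 2 or caNrf2 3. Without caNrf2 1 the 1 gene was Atp6v1a and not Nbr1. At an unadjusted p below 0.05, 1 gene was found under each setting that gave 0 with all libraries. The cause of these shifts was not tested.

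Same-numbered libraries had correlated deviations of 0.21, 0.21 and 0.095. Pairs with different numbers ran from -0.24 (ctrl 2 and caNrf2 1) to 0.11 (ctrl 2 and caNrf2 3), and all but the latter pair were below 0. Only caNrf2 3 correlated better with another number than with its own. The labels state no block, so the main test did not pair the samples. Whether same-numbered libraries share a source of variation was not tested. The replicate block gave 9 of the 40 genes higher (Cst3 and Ctsc added) and 4 lower (Neu1 lost), 14 and 17 further genes, and 1888 and 1330 of all genes.

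Signs turned only in genes that did not pass and lay near 0. Map1lc3b had a log2 fold change of -0.031 under upper-quartile scaling and -0.010 with total counts, and Atg7 -0.009 under upper-quartile scaling. With 1 library left out, values ran from -0.056 to 0.153 for Ctsh, -0.053 to 0.137 for Man2b1, -0.189 to 0.018 for Grn, -0.145 to 0.083 for Mitf, -0.062 to 0.194 for Map1lc3a, -0.045 to 0.057 for Map1lc3b, -0.079 to 0.105 for Atg7 and -0.085 to 0.034 for Calcoco1. No scaling moved the median of all genes by over 0.1. What depth limits in the low genes was not tested.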
